A study of Drosophila melanogaster with 2 samples.

Results

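Intergenic distal peaks of fd102C were the peaks whose summit lay outside every annotated gene and over 1 kb from every annotated transcript start (TSS). They numbered 317 of the 2031 peaks that passed the authors' reproducibility threshold (15.6%). Of the other peaks, 632 were distal but inside a gene and 1082 lay within 1 kb of a TSS. The study is a ChIP-seq experiment on whole Drosophila melanogaster embryos of 2 to 6 h, of both sexes, from a transgenic line (fd102C-GFP) that stably carries fd102C with GFP fused to its C terminus. The age is that of the labels' source name, while their age field holds a number of hours that cannot be right. The study has 2 biological replicates in 1 group, and no line without the fusion was analysed here. The antibody field of the labels names fd102C, while both descriptions say input control, and the samples were treated as ChIP. No cell types were separated, so a peak may come from any cells of the embryo. Each peak has a signal as the authors' caller gave it, with no stated scale. No read counts were available, so depth is unknown, and the 2 replicates limit the precision.

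fd102C is a transcription factor of the fork head (FOX) family, whose members bind DNA through a winged helix domain and recognise variants of the sequence RTAAAYA (R is A or G, Y is C or T). In the fly embryo many developmental genes are controlled by enhancers that lie well away from the promoter, in introns or between genes, and each drives a part of the gene's pattern. A peak between genes marks where the protein was recovered, and neither names the gene it acts on nor shows that it acts there.

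The sequences under the strongest intergenic distal peaks show how varied they are with respect to the fork head consensus. Those of 7 of the 8 peaks with the highest pooled signal among the arms shown are printed with 60 bases to each side of the summit, read from the RefSeq genome of dm6 on the plus strand and named by the protein-coding genes on either side. Capitals mark RTAAAYA on either strand. Consensus sites lie beside the summits near zfh2, SoxN and CG3473, and none lies in the other 4 windows. The next, from a peak between hid and CG7320, holds the most sites of any intergenic distal peak on these arms, 7 counting overlapping matches, in an A and T rich run, and is shown with 100 bases to each side.
Asator/zfh2, chr4:497837-497957, plus strand: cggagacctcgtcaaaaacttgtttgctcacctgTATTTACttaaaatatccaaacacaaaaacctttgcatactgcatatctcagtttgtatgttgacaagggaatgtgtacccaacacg
SoxN/CG32986, chr2L:8846057-8846177, plus strand: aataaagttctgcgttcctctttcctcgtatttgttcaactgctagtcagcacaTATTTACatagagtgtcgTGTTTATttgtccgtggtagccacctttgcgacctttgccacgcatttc
BobA/Tom, chr3L:14956426-14956546, plus strand: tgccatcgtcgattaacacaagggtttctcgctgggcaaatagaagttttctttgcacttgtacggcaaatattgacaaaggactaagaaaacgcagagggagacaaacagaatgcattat
Delta/CG43203, chr3R:19339368-19339488, plus strand: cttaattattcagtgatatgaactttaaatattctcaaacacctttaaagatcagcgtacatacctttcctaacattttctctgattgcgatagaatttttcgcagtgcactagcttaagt
COX7AL2/CG31668, chr2L:2202332-2202452, plus strand: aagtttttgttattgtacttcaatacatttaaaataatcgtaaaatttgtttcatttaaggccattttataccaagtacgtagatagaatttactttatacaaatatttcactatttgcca
CG4218/CG3473, chr2L:14556934-14557054, plus strand: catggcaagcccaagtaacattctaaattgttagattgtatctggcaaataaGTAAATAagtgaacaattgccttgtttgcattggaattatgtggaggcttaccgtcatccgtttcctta
CG43131/RabGGTa, chr3R:5113186-5113306, plus strand: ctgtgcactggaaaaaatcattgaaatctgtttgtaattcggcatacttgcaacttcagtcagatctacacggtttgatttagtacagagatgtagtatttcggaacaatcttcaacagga
hid/CG7320, chr3L:18192983-18193183, plus strand: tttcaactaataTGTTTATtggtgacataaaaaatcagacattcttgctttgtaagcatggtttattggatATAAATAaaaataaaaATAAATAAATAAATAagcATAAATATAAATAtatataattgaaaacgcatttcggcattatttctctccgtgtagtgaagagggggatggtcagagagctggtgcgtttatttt

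A second sequence recurred in these peaks. Of the intergenic distal peaks on the arms shown, the 8 strongest that hold CACTGAGA within 100 bp of the summit are printed. Each has the 12 bases on each side of the match, on the strand that reads it, with the match in capitals. An arm not shown may hold stronger ones. In each of the 8, AAA follows the match within a few bases. This 8-mer was put together after the 6-mer shares described further on had been seen, so its frequencies are a description.
slp1/slp2, chr2L:3832571-3832602, minus strand: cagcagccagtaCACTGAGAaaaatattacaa
Doc2/Doc1, chr3L:9023864-9023895, minus strand: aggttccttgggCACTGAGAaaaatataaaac
CG43336/pxb, chr3R:15644976-15645007, minus strand: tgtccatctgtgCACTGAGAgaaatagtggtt
grim/rpr, chr3L:18349526-18349557, minus strand: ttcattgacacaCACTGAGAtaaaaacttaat
CG3841/CG4382, chr2L:9598633-9598664, minus strand: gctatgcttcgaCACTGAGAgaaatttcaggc
Cyp6t1/GCS2alpha, chrX:21593987-21594018, plus strand: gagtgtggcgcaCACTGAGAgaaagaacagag
sens-2/Rca1, chr2L:6841603-6841634, minus strand: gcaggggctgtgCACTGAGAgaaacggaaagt
Ids/sty, chr3L:3382511-3382542, plus strand: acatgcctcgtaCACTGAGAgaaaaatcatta

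The strongest intergenic distal peak lay between Asator and zfh2, a zinc finger and homeodomain transcription factor gene, at chr4:497737-498069. Its signal was 833 in replicate 1 and 556 in replicate 2, and 1380.1 in the pooled list, where it ranked 4 of all peaks. It lay 3913 bp upstream of the zfh2 TSS, and the nearest of its 2 fork head sites was 23 bp from the summit. The peak between SoxN, a SOX gene of the early neuroectoderm, and CG32986 had 671 in replicate 1 and 440.2 in replicate 2, with a site 3 bp from its summit. The peak next to croc, itself a fork head gene of head development, had 652 in replicate 1 and 440.9 in replicate 2, and lay 11976 bp from the croc TSS. Both replicates placed these peaks near the top of their own lists: the 25 intergenic distal peaks with the highest pooled signal ranked no lower than 263 in replicate 1 and 159 in replicate 2.

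Several of the strongest peaks had no RTAAAYA within 100 bp of the summit. The peak between BobA and Tom, which encode Bearded family inhibitors of Notch signalling, had signals of 605 and 442 in replicates 1 and 2. The peak between Delta, a Notch ligand, and CG43203 had 465 and 311 in replicates 1 and 2, and lay 13211 bp from the Delta TSS. A peak 3331 bp from the TSS of CycB, the mitotic cyclin B, had 493 and 429, and one between CG13321 and the Polycomb group gene Psc had 467 and 328. The peak between Su(z)2, another Polycomb group gene, and CG13323 had 463 and 281, and did hold a site. Its summit lay 27450 bp from Su(z)2 and 9334 bp from CG13323. Of the 25 strongest intergenic distal peaks, 9 held a fork head site.

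The other named peaks of the strongest 25 were beside genes of several roles. A pair lay between slp1 and slp2, the sloppy paired fork head genes of segmentation, with 317 and 196 in replicate 1 and with 240 and 244 in replicate 2. One between the cell death genes rpr and skl had 275 and 268 in replicates 1 and 2. Peaks on each side of noc, a zinc finger gene, had 300.1 and 306 in replicate 1, and 221 and 210.5 in replicate 2. One next to Inx2, a gap junction gene, had 350 and 192 in replicates 1 and 2. One next to vn, an EGF receptor ligand gene, had 261 and 200.5. One between Doc2 and Doc1, T-box genes of the amnioserosa and dorsal ectoderm, had 229 and 199.8. The rest were beside CG30114, CG31668, CG3473, CG43131, Reg-2, CG42807, hng3, CG15185 or IFT57.

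Nearly the whole set was listed in both replicates. These peaks had already passed the authors' reproducibility threshold, so such a share was largely fixed in advance. Each replicate list held about 30000 peaks, and the matched ranks went down to 11620 in replicate 1 and 11554 in replicate 2. A summit within 100 bp was listed in both for 305 of the 317 peaks (96.2%), and 6 were missing from each list. Over those 305, the Spearman correlation of the replicates' signals was 0.69, given as a description. The median signal over the peaks found was 105 in replicate 1 and 84.3 in replicate 2. Of the 317, 222 were among the 2031 highest in each replicate (70.0%), against 70.4% of distal peaks inside genes and 65.0% of peaks within 1 kb of a TSS. Neither difference passed (Fisher's exact test, Benjamini-Hochberg adjusted over 8 comparisons, adjusted p = 0.94 and 0.251).

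**Figure D1:**
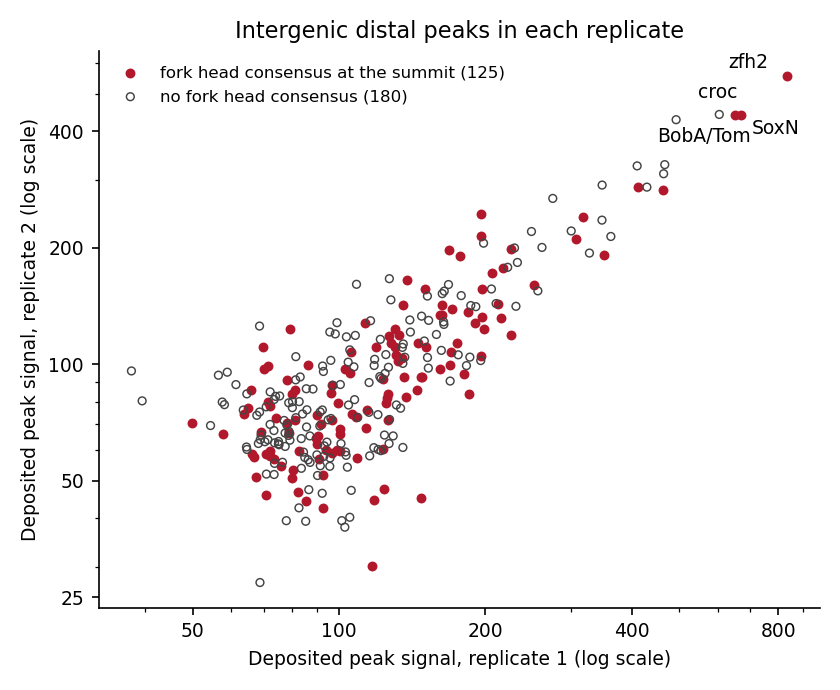
Deposited signal of each intergenic distal peak in replicate 1 (x axis) and replicate 2 (y axis), both on log scales with no stated unit, for the 305 peaks found in both. Filled points hold a fork head consensus within 100 bp of the summit and open points do not; the zfh2, SoxN, croc and BobA/Tom peaks stand at the top in both replicates, and filled and open points are spread over the whole range.

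In pooled signal the intergenic distal peaks were like the rest. Their median was 182, with quartiles of 146 and 267, against medians of 186 for distal peaks inside genes and 179 for peaks within 1 kb of a TSS. The top 25% of all signals took in 27.4% of intergenic distal peaks, against 26.4% of those inside genes and 23.4% of those near a TSS (exact Fisher tests, adjusted p = 0.94 and 0.251). With protein-coding genes alone used for the classes, the excess over peaks near a TSS was 7.36 percentage points and passed the exact Fisher test (adjusted p = 0.0171). A summit counted as repeat if its base was masked (in lower case) in the genome sequence or lay in an annotated transposable element. This held for 16.7% of intergenic distal summits, against 20.9% inside genes and 20.6% near a TSS. These differences did not pass (exact Fisher tests, adjusted p = 0.251 for each). No intergenic distal summit lay in an annotated transposable element. In none did the central 51 bases occur more than once as an exact match on the 6 chromosome arms used, the only sequence searched.

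The median distance from an intergenic distal summit to any TSS was 3912 bp, and to a protein-coding TSS 6070 bp. Over 5 kb from any TSS lay 129 peaks (40.7%), and over 10 kb lay 57 (18.0%). For 118 the nearest TSS belonged to a noncoding gene. Near the limit of 1 kb the classes met without a step: the closest peak kept lay 1001 bp from the TSS of CG43131 with a signal of 294, and the next 1005 bp from Ocho with 126, while the closest ones left out lay 992 bp from RabGGTa with 173 and 990 bp from Ids with 381.

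The fork head consensus RTAAAYA was present within 100 bp of the summit in 128 of 317 intergenic distal peaks, or 40.4% (Wilson 95% interval 35.1 to 45.9%), against 27.4% of windows 1 kb away on the side of lower coordinates. This difference of 12.9 percentage points passed the exact McNemar test (adjusted p = 0.00479 over 23 motifs), as did that from the flank on the other side, 29.0% (exact McNemar test, adjusted p = 0.0208). Sites were nearest the middle: 51 peaks had one within 25 bp of the summit and 87 within 50 bp. There were 18.9 and 17.0 sites per 100 peaks in the bins of 50 bp on each side of the summit, against 5.68 to 11.4 in the other bins up to 500 bp. Most peaks with the consensus had 1 site (93 peaks), 24 had 2, and 11 had 3 or more. Of the 317 windows in the lower flank, 57 had their centre inside a gene or within 1 kb of a TSS. The part of this in the differences from the flank was not tested. The window at the summit was richer in A and T than its surroundings, with a median GC content of 36.8% against 42.3% and 41.8% in the flanks, and the part of this in the consensus shares was not tested. Within 250 bp of the summit the difference was 5.68 percentage points and did not pass (exact McNemar test, adjusted p = 0.466).

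**Figure D2:**
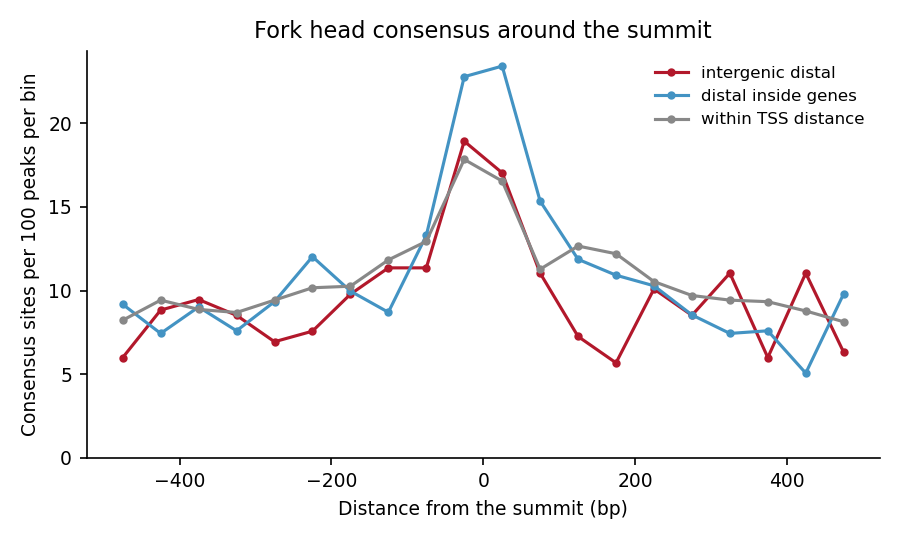
Sites of the fork head consensus per 100 peaks in bins of 50 bp (y axis) by distance from the summit in bp (x axis), for intergenic distal peaks and the other classes. All 3 lines are highest in the bins on either side of the summit, where intergenic distal peaks have 18.9 and 17.0 sites per 100 peaks.

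By this consensus the intergenic distal peaks did not differ from the other classes beyond counting error. Their share of 40.4% stood against 46.5% of distal peaks inside genes and 41.9% of peaks near a TSS (Fisher's exact test, adjusted over 46 motif comparisons, adjusted p = 0.319 and 0.863). The strict form GTAAACA was rarer in intergenic distal peaks than in distal peaks inside genes, at 6.94% against 13.4% (exact Fisher test, adjusted p = 0.0187). That call was lost without replicate 2, where the difference was -4.67 percentage points (exact Fisher test, adjusted p = 0.225), and also among the top 50% of peaks by signal, with a TSS limit of 2 kb and within 50 bp of the summit (exact Fisher tests, adjusted p = 0.512, 0.127 and 0.143). Against the flanks, at 4.73% and 3.47%, GTAAACA at the summit did not pass (exact McNemar tests, adjusted p = 0.595 and 0.307). The relaxed form RYMAAYA (M is A or C), which takes in the other 2, was present in 71.6% of summits and 56.8% of flank windows (exact McNemar test, adjusted p = 0.00112).

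Stronger intergenic distal peaks did not hold the consensus more often than weaker ones beyond counting error. In 4 equal bins of signal from the highest to the lowest, the shares were 45.0, 41.8, 40.5 and 34.2%. The top 50% had 43.7% and the others 37.1% (exact Fisher test, p = 0.253). Below the authors' threshold, summits of the pooled list that met the same rule held it in 38.5% from rank 2032 to 5000, in 31.2% to rank 10000, in 27.5% to rank 20000 and in 25.2% beyond. The last share is close to the 27.4% in flanks of the thresholded peaks.

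In all, 4 of the 23 motifs searched on both strands were higher at intergenic distal summits than in the lower flank (17.4%). These were the consensus, its relaxed form and a pair of 6-mers. The 6-mers had been picked as 6-mers from earlier results of these data. AAATAT was in 60.9% of summits against 37.9% of flanks, and ACACTG in 20.2% against 7.89% (exact McNemar tests, adjusted p = 5.22e-07 and 8.33e-05). Within 50 bp of the summit ACACTG exceeded the flank by 3.79 percentage points and did not pass (exact McNemar test, adjusted p = 0.25). AAATAT can overlap RTAAAYA. The STAT motif TTCNNNGAA, at 3.15% against 8.2%, and the Pleiohomeotic motif GCCAT, at 29.7% against 40.4%, were lower at the summit (exact McNemar tests, adjusted p = 0.0347 and 0.0333). Neither passed against the flank on the other side (exact McNemar tests, adjusted p = 0.633 for each). The site CAGGTA of Zelda, which opens chromatin in the early embryo, was in 5.36% of summits and 4.42% of flanks, and the GATA factor motif WGATAAG (W is A or T) in 10.1% and 5.36%, and neither passed (exact McNemar tests, adjusted p = 0.962 and 0.146). The other motifs did not pass either. They were TAATTR of homeodomain proteins in 27.4% of summits and 24.6% of flanks, AGRKGGC of CTCF (K is G or T) in 8.2% and 7.26%, RCATTCC of TEAD in 5.05% and 4.73%, CATATG of Twist in 6.94% and 7.57%, and TAATCC of Bicoid in 4.73% and 5.99%. SOX (AACAATRR) had 5.99% and 5.68%, Su(H) (YGTGRGAA) 1.89% and 4.10%, TCF (CTTTGAWS, S is C or G) 2.52% and 4.73%, Dorsal (GGGWWWWCC) 0.631% and 1.58%, and Su(Hw) (TGCATAYTT) 4.10% and 1.89%. The remaining motifs, of GAGA factor, BEAF-32, DREF and M1BP, were in 1.89, 20.5, 0.315 and 0.631% of summits, and in 2.84, 24.9, 0 and 0.631% of flanks.

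Between classes, 6 of 46 motif comparisons passed (13%), and 5 of them were with peaks near a TSS. Motifs of 4 factors were rarer in intergenic distal peaks. The motif of DREF (TATCGATA), a promoter factor of housekeeping genes, was in 0.315% against 5.08% of peaks near a TSS (exact Fisher test, adjusted p = 0.000306). That of BEAF-32, CGATA, which the DREF motif contains, was in 20.5% against 32.3%, that of M1BP (GGTCACAC), another promoter factor, in 0.631% against 3.70%, and that of GAGA factor, GAGAGAG, in 1.89% against 6.56% (exact Fisher tests, adjusted p = 0.000718, 0.0187 and 0.00771). AAATAT, picked from earlier results of these data, was more frequent, at 60.9% against 46.9% (exact Fisher test, adjusted p = 0.000306). That call was lost without replicate 2, with a difference of 8.28 percentage points (exact Fisher test, adjusted p = 0.108). None of the 5 passed among the top 50% of the peaks by signal, where fewer peaks were compared. Within 50 bp of the summit GAGA factor, M1BP and AAATAT did not pass (exact Fisher tests, adjusted p = 0.522, 0.522 and 0.233). With a TSS limit of 2 kb GAGA factor and M1BP did not (exact Fisher tests, adjusted p = 0.111 and 0.11), nor did GAGA factor with a limit of 500 bp (exact Fisher test, adjusted p = 0.0889).

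**Figure D3:**
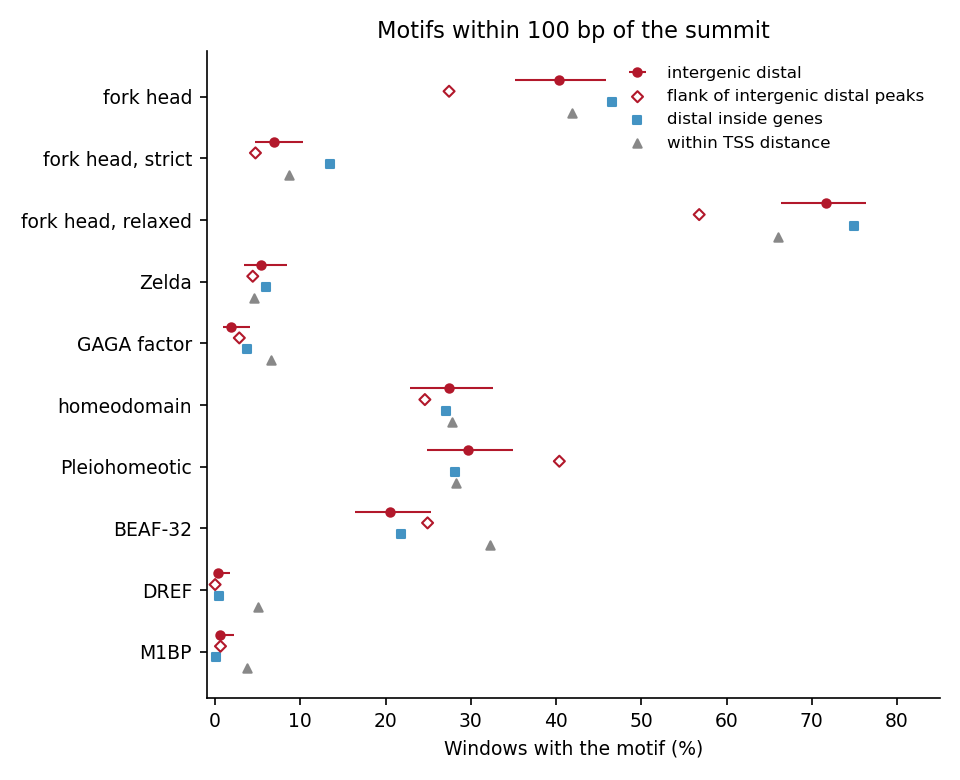
Share of windows within 100 bp of the summit that hold each motif (x axis, %), for intergenic distal peaks with Wilson 95% intervals, for their lower flank, and for the other classes. The fork head consensus and its relaxed form stand to the right of the flank, and the DREF, M1BP, BEAF-32 and GAGA factor motifs are more frequent in peaks near a TSS than in intergenic distal peaks.

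Among all 2080 6-mers, read on both strands, 23 were more frequent at intergenic distal summits than in the lower flank and 5 less frequent (1.35% in either direction, exact McNemar tests, adjusted over the 6-mers). First was CACTGA, in 26.2% of summits against 6.94% of flanks (exact McNemar test, adjusted p = 5.66e-07). The next were AGTGTA in 22.4% of summits against 6.31% of flanks, the AAATAT given above, CAAATA in 37.9% against 19.6%, GAGAAA in 29.7% against 12.9% and ACTGAG in 18.3% against 5.36%. They were followed by AATATT in 35.0% against 17.7%, AGAAAT in 32.5% against 16.4%, ACACTG as above, and TACACA in 20.8% against 8.52%. Several of these read parts of 1 longer sequence. TACACT, the other strand of AGTGTA, runs into CACTGA and this into ACTGAG, and GAGAAA can follow. The slp1/slp2 and Ids/sty windows printed with CACTGAGA hold this run as far as ACTGAG, and both go on to hold GAGAAA. The 6-mers therefore count partly the same sites.

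CACTGA was also more frequent than in peaks near a TSS, at 26.2% against 12.8% (exact Fisher test, adjusted p = 6.88e-05), where 29 of the 6-mers passed in either direction (1.39%), 15 higher and 14 lower. AGTGCA, at 26.5% against 12.8%, and ACTGAG, at 18.3% against 7.58%, were the other higher ones among the first 4, and TATCGA was lower, at 5.05% against 15.6% (exact Fisher tests, adjusted p = 5.51e-05, 9.59e-05 and 9.59e-05). Against distal peaks inside genes none of the 6-mers passed (0%, exact Fisher tests, smallest adjusted p = 0.214), while 131 had an unadjusted p under 0.05. CACTGA stood at 26.2% against 17.2% there (exact Fisher test, adjusted p = 0.453), and AAACAA at 35.0% against 48.3% (exact Fisher test, adjusted p = 0.214).

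The 8-mer CACTGAGA was within 100 bp of the summit in 32 intergenic distal peaks, or 10.1%, against 5.54% of distal peaks inside genes and 2.13% of those near a TSS. The flanks of intergenic distal peaks had it in 2 and 3 windows of 317. Its sites lay mostly within 100 bp of the summit: there were 18 within 50 bp and 19 from 50 to 100 bp, then 7 from 100 to 150 bp and at most 3 in each further bin of 50 bp up to 500 bp. CACTGA was in 16.3% of the top 25% of intergenic distal peaks by signal and in 34.2, 26.6 and 27.8% of the others, and in 3 of the strongest 25. Peaks with CACTGA held RTAAAYA in 36.1% and those without it in 41.9% (exact Fisher test, p = 0.435).

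Another thresholded summit lay within 5 kb of 136 of the 317 intergenic distal peaks (42.9%), against 43.7% of distal peaks inside genes and 31.6% of peaks near a TSS (exact Fisher tests, adjusted p = 0.94 and 0.00214). The second difference did not pass among the top 50% of the peaks by signal, at 5.57 percentage points, or with a TSS limit of 2 kb, at 6.07 (exact Fisher tests, adjusted p = 0.459 and 0.201). The 317 peaks lay in 214 of the 10424 intervals between protein-coding genes, and 66 of these intervals held 2 or more, with 169 peaks in all. Over 10 kb from any other thresholded summit lay 122 of the peaks.

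The intervals with the most members lay beside developmental genes and others. Between comm, a gene of axon crossing at the midline, and CG6244 there were 5 peaks with pooled signals from 127 to 315, 4 of them with a fork head site. Between the Iroquois homeobox genes caup and mirr there were 5, from 137 to 265, with sites in 3. Between the Wnt ligand genes Wnt4 and wg there were 5, from 131 to 248, with sites in 2, and 4 of the 5 lay over 10 kb from any TSS. Between Doc2 and Doc1 there were 4, from 137 to 430.2, and none had a fork head site. The 4 between BobA and Tom spanned 127 to 1039.2 in signal, with a site in 1. The others with 4 lay between ND-20L and Dr, a homeobox gene of the neuroectoderm, between dnc and Myc, CG43336 and pxb, hng3 and CG13898, and CG13334 and CG42807. These intervals are ranked by count and differ in length. The longest, between comm and CG6244, has 79891 bp, or 0.0626 peaks per kb. The shortest, between CG13334 and CG42807, has 9826 bp, or 0.407 per kb.

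By gene list, 58 of 287 listed genes had an intergenic distal peak in an interval next to them, and 390 of all 13945 protein-coding genes did (2.8%). A peak was given to the protein-coding gene on each side at any distance, such as 44066 bp for salr. With each peak given only to the gene of its nearest protein-coding TSS, the listed genes numbered 40. The lists and genes were chosen with earlier results of these data known, so the counts are a description. T-box genes had 5 of 8 (Doc1, Doc2, mid, org-1 and H15), SOX genes 4 of 8 (SoxN, D, Sox21b and Sox21a), and GATA factor genes with ush 3 of 6 (srp, GATAe and grn). Gap and head gap genes had 6 of 11, with signals of 247 beside btd, 222 beside hb and 222 beside kni. Tracheal and spalt genes had 7 of 13, among them esg with 265 and salm with 228. Pair-rule genes had 4 of 10 (slp1, slp2, odd and opa) and segment polarity genes 5 of 14 (mid, wg, en, H15 and ptc).

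Among broader families, 18 of 65 homeobox genes outside the Hox group had such a peak, led by zfh2, by tup with 420.0 and by ara and caup, which share a peak of 349. Hox genes had 2 of 8, abd-A and Antp. Secreted ligand genes had 7 of 23, Delta, vn, wg, Wnt4, Ser, pyr and ths, and neuroectoderm and neuroblast genes 6 of 17, SoxN, pros, esg, D, Dr and sna. Notch pathway and E(spl) genes had 4 of 21 (Tom, Delta, Ser and fng), dorsal ectoderm genes 3 of 14 (Doc1, Doc2 and tup), mesoderm genes 3 of 15 (org-1, sna and slou) and fork head genes 3 of 16 (croc, slp1 and slp2). The bHLH genes outside E(spl) had 1 of 28, sim. Ribosomal protein genes had 0 of 34 and odorant receptor genes 0 of 28. At the 2.8% of all protein-coding genes, the bHLH, ribosomal protein and odorant receptor lists would each hold few or none. Beside an interval over 10 kb lay only 4 of the ribosomal protein genes and 5 of the odorant receptor genes. A peak between paralogs such as Doc2 and Doc1 counts for both. fd102C itself had none next to it: the nearest of the 4 intergenic distal summits on its chromosome lay 346632 bp from its TSS. The nearest thresholded summit of any class lay 10270 bp from that TSS.

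The length of the interval moved with these counts. Of the 1660 protein-coding genes beside an interval over 10 kb, 284 were next to an intergenic distal peak (17.1%). Of the 108 such genes in the 16 developmental lists, 52 were (48.1%), and of all 225 genes in those lists 58 were (25.8%). A listed developmental gene was on at least 1 side of 89 of the 317 peaks (28.1%), and of 9 of the strongest 25. The share of all intervals that lie beside such a gene was not counted. These counts therefore have no background to be read against.

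**Figure D4:**
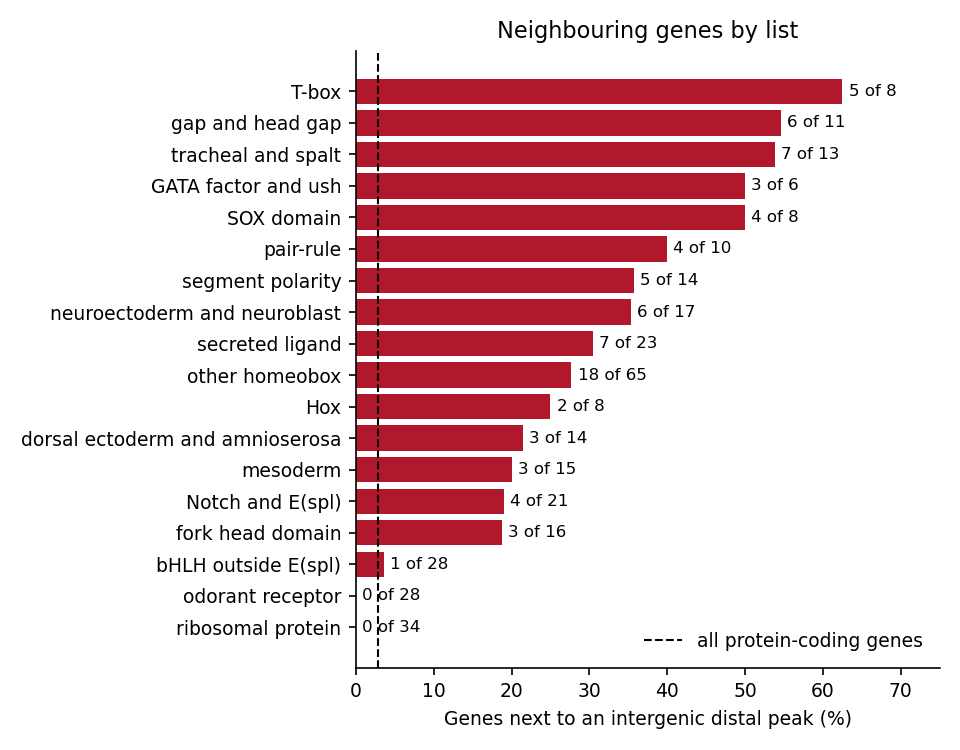
Share of the genes of each list that have an intergenic distal peak in an interval next to them (x axis, %), with the count beside each bar; the dashed line is the 2.8% of all protein-coding genes. T-box genes are at the top with 5 of 8, and the ribosomal protein and odorant receptor bars are at 0. At the share of the dashed line, lists of the size of these last would also hold few or none.

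Per base open to the rule (outside genes and over 1 kb from a TSS), intervals of 20 to 40 kb held 15.9 peaks per Mb and those over 40 kb 4.66 per Mb. Those of 10 to 20 kb held 9.31 and shorter ones 14.5. Divergent intervals, with a gene starting at each end, held 93 peaks, 29.3% of the peaks and 23.7% of the open bases. Tandem intervals held 155 (48.9 and 52.0%) and convergent ones 69 (21.8 and 24.3%).

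The chromosome arms differed. On arm 3L, 99 of 436 thresholded peaks were intergenic distal (22.7%), against 13.7% on the other arms, and on X 23 of 299 (7.69%), against 17.0% (exact Fisher tests, adjusted over 6 arms, adjusted p = 5.94e-05 and 6.03e-05). Arm 2L, with 19.3%, did not pass (exact Fisher test, adjusted p = 0.0539), but did without replicate 2 and with a TSS limit of 500 bp (exact Fisher tests, adjusted p = 0.00327 and 0.00119). Neither did 2R with 47 peaks, 3R with 65 or chromosome 4 with 4 of 15. Per open Mb there were 12.9 peaks on 2L, 6.77 on 2R, 11.9 on 3L, 9.28 on 3R, 18.4 on chromosome 4 and 4.76 on X. Embryos of both sexes carry fewer copies of X than of the other arms, and the part of this in the signal on X was not tested.

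**Figure D5:**
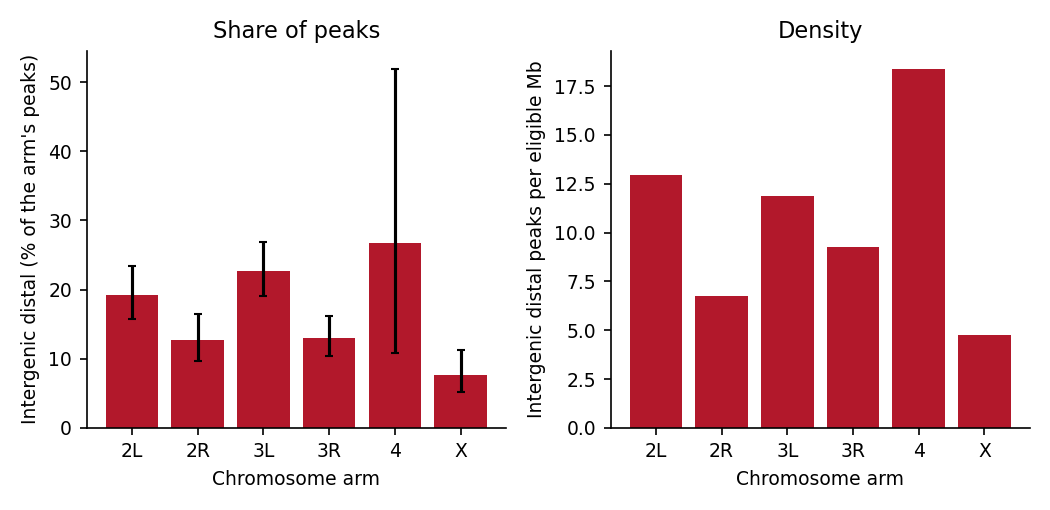
Left, intergenic distal peaks as a share of each arm's thresholded peaks (y axis, %, with Wilson 95% intervals); right, intergenic distal peaks per Mb of bases open to the rule (y axis), by chromosome arm (x axis). The share is highest on chromosome 4, which has a wide interval from 15 peaks, followed by 3L at 22.7%, and is lowest on X at 7.69%.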

How the data were processed

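ChIP-seq peak lists of fd102C-GFP embryos (2 replicates, 1 group, assembly dm6 per the labels) were used. The deposited lists give the authors' signal per peak, the position of its summit and a −log10 q-value, which was used only to break ties. Peaks were called on each replicate and on the pooled replicates against a control, per the notes deposited with the files; the control was not analysed here. No label or file note used here names the aligner, caller, threshold or scale of the signal. The thresholded peaks are the 2031 pooled peaks with the highest signal. Depth is unknown, and intervals cover counting error only.

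Summits were classed with Ensembl release 115 without transposable elements. Sequence was RefSeq's dm6. Motif and 6-mer presence within 100 bp of the summit was compared with a window 1000 bp away (two-sided exact McNemar test) and between classes (two-sided Fisher's exact test, SciPy 1.17.1), with Benjamini-Hochberg adjustment and a threshold of 0.05. Peaks are not replicates of a condition: these tests treat peaks as independent, though some share a locus. The motif and 6-mer tests were tried only on genome windows with planted sites. Such a trial does not measure error rates or the effect of peaks that share a locus. Named were the 25 peaks with the highest signal, the 10 intervals with most members, list genes beside a peak, the first 6-mers and fd102C. Members, motifs, gene lists and tests were chosen with earlier results of these data known. The sequence of 1 of the strongest peaks is not reported here.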

Additional observations from a re-analysis of the deposited data

How the results depend on the processing

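Over 217 recalculated values with other peak lists, classes, windows and flanks, 161 kept their direction and their side of the threshold, or for counts stayed within 1.5 times. Another 11 changed sign, all in differences that did not pass in either setting. Against distal peaks inside genes, the difference in the top 25% of signal was -1.67 to -0.50 percentage points with 1 replicate left out. That in the top of both replicates was 0.95 with a TSS limit of 2000 bp and 1.07 with summits matched within 50 bp. That with another summit nearby was -1.45 to 0.52 with 1 replicate left out, 0.0949 with a limit of 500 bp, 1.19 for summits within 2000 bp and 3.44 within 10000 bp. Against peaks near a TSS, the fork head difference was 2.25 with a limit of 500 bp and 0.174 in windows of 50 bp, and the repeat difference was -3.97 to 0.203 with 1 replicate left out. The number of intergenic distal peaks was 161 among the top 50% of the thresholded set by signal. Fork head sites exceeded the flank by 5.68 percentage points in windows of 250 bp (exact McNemar test, adjusted p = 0.466) and by 2.21 for GTAAACA alone (exact McNemar test, adjusted p = 0.595). Motifs that differed from distal peaks inside genes, 1 in all, numbered 0 to 1 with 1 replicate left out, 0 in the top 50%, with a TSS limit of 2000 bp or with windows of 50 bp, 2 with a limit of 500 bp and 3 with windows of 250 bp. Against peaks near a TSS, 5 in all, they numbered 0 in the top 50%, 3 with a limit of 2000 bp and 2 with windows of 50 bp. With protein-coding genes only, the share in the top 25% of signal exceeded that near a TSS by 7.36 percentage points. Listed genes next to a peak, 58 in all, numbered 37 in the top 50% and 40 by the nearest protein-coding TSS alone. The excess with another summit nearby over peaks near a TSS was 5.57 in the top 50% and 6.07 with a limit of 2000 bp.

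The following were added after the data had been seen. 6-mers called against the flank, 28 in all, numbered 1 in the top 50%, 46 with a limit of 500 bp and 74 with protein-coding genes only. Against distal peaks inside genes 1 passed with protein-coding genes only. Against peaks near a TSS, 29 in all, they numbered 1 in the top 50%, 50 with a limit of 500 bp, 9 with a limit of 2000 bp and 62 with protein-coding genes only. In the top 50%, the 1 that passed against the flank or against peaks near a TSS was not CACTGA. The share of arm 2L exceeded that of the others by 3.42 to 6.38 percentage points with 1 replicate left out, and by 7.55 with a limit of 500 bp. The cause of these changes was not tested. The top 50% also held fewer peaks to compare. No paired analysis was possible because there is 1 group.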

Other observations

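Intergenic distal summits were as large a share of the pooled list below the authors' threshold as above it, or larger. They were 15.9% of the first 1015 peaks and 15.4% of the next 1016, against 16.3% from rank 2032 to 5000, 19.7% to rank 10000, 20.7% to rank 20000 and 20.3% beyond. Annotated transposable elements held none of the intergenic distal summits to rank 2031, 4 of 483 from rank 2032 to 5000 and 36 of 2032 in the last range. Cell death genes were next to several intergenic distal peaks outside the gene lists: there were 2 between rpr and skl, with pooled signals of 541 and 136, 2 between grim and rpr, with 314 and 267, and 1 between hid and CG7320, with 171. These were picked out after their values had been seen.

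What limits all of these values is that the lists give no read depth, that 2 replicates are summarised by peaks and not counts, and that a peak between genes is assigned to a gene by position alone. Motif matches describe the letters near a summit and not binding.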
